A study of Mus musculus with 30 samples.

Results

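The 10 genes described here belong to the heat shock response and were followed in early B cells of mice that carry a substitution in Aiolos: Hspa1a, Hspa1b, Hspa8, Hsph1, Dnajb1, Hsp90aa1, Hsp90ab1, Hspd1, Hspe1 and Hsf1. They were chosen by name, with earlier results of these data known. All 10 members were found among the 24459 genes of the deposited counts. Of these, 9 had enough counts to be tested in pre-pro B cells and 10 in pre-B cells. Not all of them encode cytosolic chaperones: Hspd1 and Hspe1 encode the chaperonin pair of mitochondria, and Hsf1 encodes the transcription factor that switches heat shock genes on.

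The study compared C57BL/6 mice with no copy (WT), 1 copy (het) or 2 copies (homo) of the G158R substitution in Ikzf3, the gene of the zinc finger factor Aiolos. RNA came from bone marrow cells sorted by flow cytometry as pre-pro B (B220+, AA4.1+, CD43+, IgM-, CD24-) or pre-B (B220+, AA4.1+, CD24+, IgM-, CD43-), with 3 libraries in each of the 6 groups. Regions bound by Ikaros, the relative of Aiolos encoded by Ikzf1, and by Aiolos itself were deposited for WT and homo thymocytes and for WT and homo pre-B cells grown from B220+ IgM- marrow with IL-7, SCF and Flt3L over a layer of Tst-4 stroma, from 1 library per antibody, genotype and cell type. The ages of the mice and whether libraries came from separate animals are not given in the sources used here, so p-values measure only the spread between these libraries, which may be technical.

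Gene counts per library ran from 1888871 to 9048055. The shallowest library was homo pre-B replicate 3, and the 3 homo pre-pro B libraries, at 8592557 to 9048055, were deeper than any WT one, at 5443344 to 6492192. No 2 libraries were identical. By counts of Xist and Y-linked genes all 6 WT libraries were XX, whereas replicate 2 of het and replicates 1 and 3 of homo were XY at both stages. The summed level of 12 B lineage markers, none at 0 in any group, was 1170 to 1610 CPM (counts scaled to a common library depth) in pre-pro B and 3910 to 6800 in pre-B libraries.

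Heat shock proteins of the 70 kDa family hold unfolded stretches of other proteins and release them in cycles driven by ATP. J-domain proteins such as Dnajb1 deliver clients and start the ATP step, nucleotide exchange factors such as Hsph1 end it, and the HSP90 proteins take over many signalling clients at a late stage of folding. Hspa8, Hsp90ab1 and the mitochondrial pair are made in unstressed cells, whereas Hspa1a and Hspa1b are the strongly inducible HSP70 genes. On protein-damaging stress Hsf1 forms trimers and binds heat shock elements, inverted repeats of GAA and TTC, in the promoters of such genes.

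Hspa1a and Hspa1b are neighbouring copies on the minus strand of chromosome 17. In mm10 coordinates Hspa1b spans chr17:34956429-34959238 and Hspa1a spans chr17:34969359-34972156, with 10120 bases between them. The 250 bases before each start site are shown because they carry the element through which these genes are known to be induced and because they show how alike the copies are. They are written 5′ to 3′ on the minus strand, from RefSeq on GRCm38.p6, with the letters that match a heat shock element pair in capitals.
Hspa1a (chr17:34972157-34972406): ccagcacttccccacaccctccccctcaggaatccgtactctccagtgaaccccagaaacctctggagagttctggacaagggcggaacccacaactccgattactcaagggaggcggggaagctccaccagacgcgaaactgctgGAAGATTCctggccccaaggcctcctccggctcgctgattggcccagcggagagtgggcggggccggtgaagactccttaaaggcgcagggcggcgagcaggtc
Hspa1b (chr17:34959239-34959488): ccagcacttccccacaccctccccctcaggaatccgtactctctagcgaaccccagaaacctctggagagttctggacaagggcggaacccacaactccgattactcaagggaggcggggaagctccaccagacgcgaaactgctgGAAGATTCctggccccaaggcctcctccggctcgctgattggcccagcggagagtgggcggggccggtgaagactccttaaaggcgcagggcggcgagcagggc
The windows are identical at 247 of 250 bases (98.8%). The 3 differences are C44T, T47C and T249G, with the Hspa1a base first and positions counted from the 5′ end of the window. Each window holds GAAGATTC, starting 104 bases before the start site. A pair with the letters GAANNTTC or TTCNNGAA on either strand, overlaps counted, is found in 11.9% of 17492 promoter windows of this length. Because the copies are so alike, reads and bound regions could be divided between them in ways the files do not record, so the values of each are given beside those of the sum.

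In WT pre-B cells the inducible HSP70 genes were near the limit of detection, and in homo pre-B cells both were called higher. Hspa1b had 11, 9 and 14 counts in the WT libraries, 41, 28 and 79 in the het ones and 102, 121 and 102 in the homo ones. Hspa1a had 0, 1 and 1 counts in the WT libraries, 5, 1 and 8 in the het ones and 13, 16 and 31 in the homo ones. For either gene no homo library fell to the level of any het library, and for Hspa1b no het library fell to that of any WT library.

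Scaled to library depth (CPM after TMM normalisation), Hspa1b stood at 1.88 ± 0.338 in WT (SD, n = 3), at 8.26 ± 2.8 in het and at 32.1 ± 25.4 in homo, where the 3 libraries read 16.2, 18.7 and 61.3. The third homo value comes from the shallowest library, whose raw count, 102, equals that of replicate 1. In edgeR's quasi-likelihood test Hspa1b was 15.3-fold higher in homo than in WT (log2 3.94 ± 0.579 SE, adjusted p = 0.00129), and Hspa1a differed by log2 5.35 ± 1.3 (adjusted p = 0.0191). With 2 counts of Hspa1a in all of WT against 60 in homo, the ratio of pooled counts was 37.5, with a 95% counting interval of 9.93 to 316. These 2 genes were the only members called, out of 10 tested, in a contrast where 15.9% of 11411 genes were called. They were called higher, and 7.42% of genes were called higher.

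The summed pair gave 1.76, 1.79 and 2.42 CPM in the WT libraries, 7.17, 7.15 and 12.6 in the het ones and 18.2, 21.1 and 79.9 in the homo ones, all pre-B. The 3 genotypes did not overlap. The sum was 18-fold higher in homo than in WT (log2 4.17 ± 0.638, edgeR adjusted p = 0.00165). Without the shallow library homo replicate 3 the difference was log2 3.29 (edgeR adjusted p = 4.22e-05), and leaving out any 1 library gave an adjusted p of at most 0.0121. The Hspa1a call alone was lost without WT replicate 1, 2 or 3 (edgeR adjusted p = 0.0729, 0.0584 and 0.0621), with a sex term (0.0876) and in a fit of all 18 libraries (0.147), whereas Hspa1b stayed called in all 14 alternatives, with adjusted p from 1.01e-11 to 0.0451.

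Het pre-B cells lay between the other genotypes but no member was called against either of them. Against WT, Hspa1b was at log2 2.13 ± 0.606, a 4.38-fold difference (edgeR adjusted p = 0.0733), and the sum at 2.17 ± 0.667 (0.0946), where 6.18% of genes were called. Against het, homo cells differed in Hspa1b by log2 1.80 ± 0.485 (0.106) and in the sum by 1.99 ± 0.533 (0.104), where 1.89% of genes were called. The comparisons of het and homo with WT use the same WT libraries. Leaving out homo replicate 3 put the sum at log2 1.12 between homo and het, with an edgeR adjusted p of 0.0407.

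**Figure D1:**
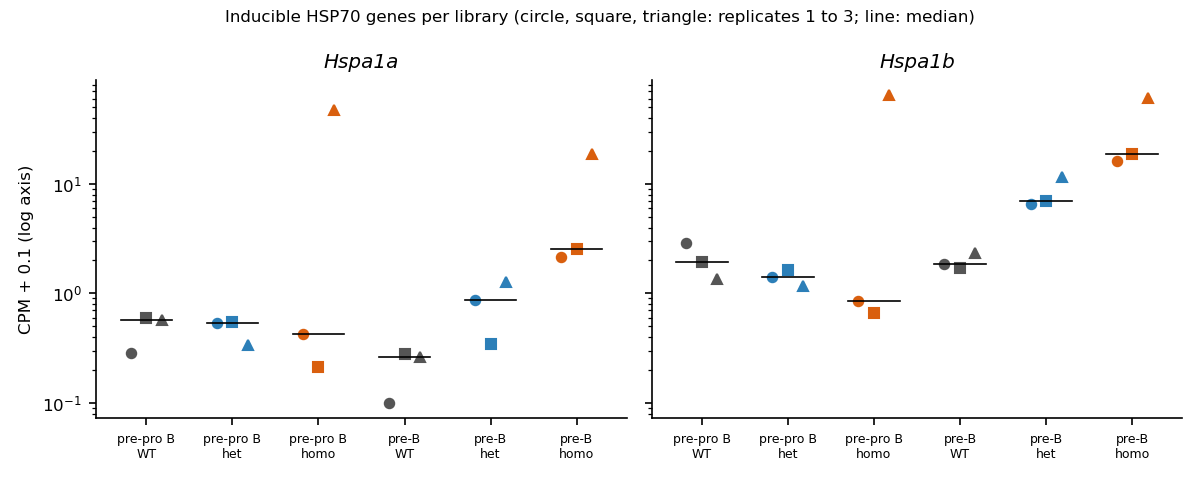
CPM of Hspa1a (left) and Hspa1b (right), plus 0.1 and on a log axis, in each of the 18 RNA libraries, by stage and genotype, with the group median as a line. In pre-B cells Hspa1b runs from 1.88 ± 0.338 CPM in WT through 8.26 ± 2.8 in het to 32.1 ± 25.4 in homo without overlap, and in pre-pro B cells 1 homo library stands far above the rest.

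Summed levels of NK and innate lymphoid markers and of myeloid markers followed the same order of genotypes in pre-B cells, but few genes carried them. The summed level of 14 NK and innate lymphoid markers was 2.24 to 3.4 CPM in WT, 7.79 to 11.8 in het and 24.7 to 27.1 in homo. In WT 8 of these markers were at 0 in every library (Ncr1, Klrk1, Klra8, Klra9, Gzma, Gzmb, Eomes and Itga2), and in homo only Klra8 and Tbx21 were. Most of that sum came from the cytotoxic gene Prf1 (means of 0.632, 5.66 and 10.9 CPM for WT, het and homo) and the NK receptor gene Klrb1c (1.79, 3.25 and 10.1). These were the 2 markers of the list with enough counts to be tested, and both were called higher in homo than in WT. Of all genes 7.42% were called higher in that contrast. The summed level of 12 myeloid markers was 55.9 to 58.2 CPM in WT, 84.6 to 93.8 in het and 117 to 152 in homo, with Ctsg and Cebpe at 0 in homo. Nearly all of it was Itgam, an integrin gene of myeloid and NK cells, at 50.5 to 54.6, 81.7 to 92.4 and 110 to 147 CPM. Of 12 myeloid markers 2 were tested and 1 was called higher in homo, in the same contrast. Some other lists did not follow that order. The plasmacytoid dendritic cell sum was 1280 to 1380 CPM in WT, 1180 to 1320 in het and 1020 to 1130 in homo. That of T lineage markers was highest in WT, at 60.4 to 64.3 CPM, against 27.1 to 35.9 in het and 38.5 to 52.3 in homo. The stromal and endothelial sum was 259 to 282 CPM in WT, 296 to 388 in het and 314 to 462 in homo. Het and homo overlapped there, both above WT, and of 2 markers tested 0 were called in homo against WT. Of 2 erythroid and megakaryocyte markers tested 1 was called higher in homo, while the sums of that list overlapped between genotypes. The part of other cells in the Hspa1a and Hspa1b values was not tested. In bulk samples more cells of a type and more RNA per cell cannot be told apart.

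In pre-pro B cells the same pair of genes was low in 8 of 9 libraries and very high in the ninth. Hspa1b had 15, 11 and 8 counts in the WT libraries, 6, 14 and 9 in the het ones and 7, 5 and 590 in the homo ones. Hspa1a had 1, 3 and 3 counts in the WT libraries, 2, 4 and 2 in the het ones and 3, 1 and 430 in the homo ones. It did not pass the count filter at this stage and was not tested. The summed pair in homo stood at 1.08, 0.677 and 111 CPM.

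The high library, homo replicate 3, decided the sign of the comparison. With it Hspa1b was at log2 3.49 ± 1.94 in homo against WT (edgeR adjusted p = 0.248), and without it at −1.53 (0.0629). The sum was at log2 4.01 ± 2.09 (0.22) with it and at −1.39 (0.0573) without it. The other 2 homo libraries had 7 and 5 counts of Hspa1b, fewer than any WT library.

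Within homo replicate 3 few other genes stood out. Against the highest of the other 8 pre-pro B libraries Hspa1a was 93.8-fold and Hspa1b 22.8-fold higher. Of 11506 genes, kept by a lower limit on their count in homo replicate 3 itself, 17 were at least 2-fold higher, this pair included. Next came Atf3, a stress-induced transcription factor gene (37 counts against 8, 3.23-fold), Hp, the haptoglobin gene (2.74-fold), and Hsf4, a relative of Hsf1 (28 counts against 10, 2.7-fold). Nr4a1, an immediate early gene, was 2.3-fold higher at 412 counts. The small heat shock gene Hspb1, below that limit, had 13 counts there and 0 in each of the other pre-pro B libraries. These genes were picked out for being high in that library, so the values are a description.

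The counts were divided between the copies as follows in the libraries that had most of them. Homo pre-pro B replicate 3 had 430 counts of Hspa1a to 590 of Hspa1b, whereas the homo pre-B libraries had 13 to 102, 16 to 121 and 31 to 102. Hspa1l, which lies beside Hspa1a on the same chromosome and encodes an HSP70 typical of testis, gives a further comparison. It had 68, 78 and 59 counts in homo pre-pro B cells and 58, 60 and 16 in homo pre-B cells. Its level in pre-B cells was 7.51 ± 1.38 CPM in WT and 9.36 ± 0.227 in homo, and homo pre-pro B replicate 3 was the lowest of its group.

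Ikaros regions lay beside this pair in cultured pre-B cells of both genotypes. In WT the list held chr17:34960806-34961166 with a deposited fold of 7.17 and chr17:34962087-34962960 with a fold of 20.46 and a −log10 q of 95.32. The second lies between the copies, 2849 bases from the Hspa1b start site, and ranked 18 by fold among the 3683 regions of its list. In homo the list held chr17:34960750-34963534, which spans both of those, with a fold of 18.79, a −log10 q of 83.91 and rank 98 among 8609 regions. The folds and q-values are the authors' own, and ranks from lists of such unequal length show no change.

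A further 2 regions of lower fold were listed in homo and not in WT pre-B cells. One, chr17:34958407-34959371, covers the start site of Hspa1b with a fold of 5.0 and a −log10 q of 6.82, and the other, chr17:34971678-34972213, covers that of Hspa1a with a fold of 4.95 and a −log10 q of 8.22. Both are near the median fold of that list, 4.78. A start site was covered in the homo and not in the WT pre-B list at 2.14% of 17492 genes, and in the homo list at 2.36% against 0.229% in the WT list. Of the WT pre-B regions 94.7% were overlapped by a homo region, and 40.4% of the homo regions by a WT one. There was 1 library per list, so the difference has no replicate check.

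No Ikaros region lay within 10 kb of either gene in WT or homo thymocytes, and no Aiolos region in any of the 4 Aiolos lists, in which 0.946% (WT pre-B), 0.0594% (homo pre-B), 0.0503% (WT thymocyte) and 0.503% (homo thymocyte) of protein-coding genes had one. Those Aiolos lists were short, with 431 regions in WT and 24 in homo pre-B cells and 25 in WT and 184 in homo thymocytes. The pre-B RNA came from sorted cells and the pre-B regions from cultured ones, so RNA and binding were not measured in the same cells.

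**Figure D2:**
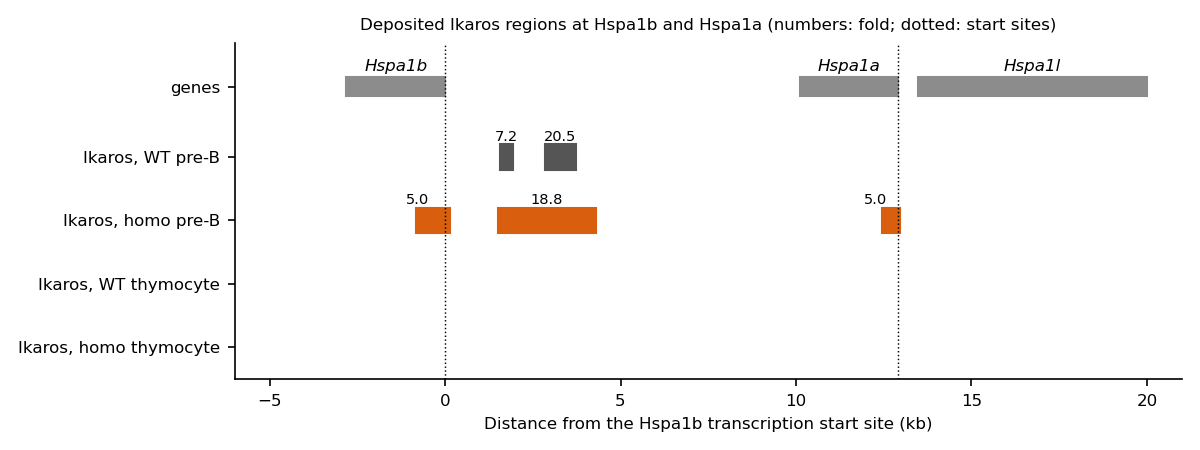
Genes (grey) and deposited Ikaros regions (blocks, with the authors' fold) by distance in kb from the Hspa1b start site, 1 row per list. The region between the copies is present in WT (20.46) and homo (18.79) pre-B cells, the blocks over the dotted start sites are in the homo pre-B row, and both thymocyte rows are empty.

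The constitutive HSP70 gene Hspa8 and the HSP90 gene Hsp90ab1 were called lower in homo than in WT pre-pro B cells, in libraries that also differed in depth. Hspa8 stood at 72.5, 63.1 and 62.1 CPM in the WT libraries, 72.2, 48.7 and 50.5 in the het ones and 45.2, 47.8 and 49.5 in the homo ones. Every homo library was below every WT library, and the difference was log2 −0.48 ± 0.134 (edgeR adjusted p = 0.0289). Hsp90ab1, the constitutive cytosolic HSP90, stood at 548, 489 and 475 CPM in the WT libraries, 552, 375 and 376 in the het ones and 359, 367 and 370 in the homo ones. That was log2 −0.48 ± 0.138 (0.0358), again without overlap. Hsf1 was also lower, at 84.3, 91.6 and 95.5 CPM in the WT libraries, 80.9, 84.6 and 81.7 in the het ones and 77.9, 75.7 and 78 in the homo ones (log2 −0.24 ± 0.0556, 0.0117). Of 9 members tested 3 were thus called lower, where 22.4% of genes were called and 10.4% were called lower.

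The raw counts of Hspa8 and Hsp90ab1 hardly followed depth. Over the 9 pre-pro B libraries depth varied 1.93-fold, while Hspa8 ran from 330 to 455 counts (1.38-fold) and Hsp90ab1 from 2522 to 3393 (1.35-fold). The slope of log2 count on log2 depth was 0.362 for Hspa8 and 0.366 for Hsp90ab1, where a gene that follows depth has a slope near that of Hsf1, 0.951, or Dnajb1, 1.15. Such flat slopes were not particular to chaperone genes: those of Actb, Eef1a1 and B2m were 0.174, 0.233 and 0.177 in the same libraries. The shallowest library of that stage, het replicate 1, had the highest Hspa8 and Hsp90ab1 levels of its group, and the 3 deep homo libraries had the 3 lowest Hsp90ab1 levels of the stage. The median slope was 1.13 over 4152 genes with a mean count from 300 to 1000, the range that holds Hspa8, and 0.859 over 703 genes with a mean count of at least 2000, the range that holds Hsp90ab1. Every homo library of this stage was deeper than every WT library, so depth and genotype cannot be told apart in this contrast. With library size as a covariate none of the 3 members was called. The difference shrank to log2 −0.11 for Hspa8 (edgeR adjusted p = 0.468) and −0.10 for Hsp90ab1 (0.184), while for Hsf1 it was −0.29 (0.064). When libraries were left out in turn, Hsf1 was the only member called without any 1 of WT replicates 1, 2 and 3 or homo replicates 1 and 3, and none was without homo replicate 2.

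In pre-B cells none of these 3 genes was called. Hspa8 stood at 63.3, 67 and 62.4 CPM in the WT libraries, 56.9, 86.1 and 58.5 in the het ones and 59.4, 65.5 and 147 in the homo ones. Hsp90ab1 stood at 457, 490 and 465 CPM in the WT libraries, 441, 586 and 439 in the het ones and 469, 479 and 1061 in the homo ones. The value that stood apart came in both genes from the shallowest library of its group, het replicate 2 and homo replicate 3. The differences between homo and WT were log2 0.44 ± 0.309 (edgeR adjusted p = 0.376) and 0.50 ± 0.286 (0.279). Hsf1 read between 79.3 and 83.8 CPM in WT, between 69.1 and 78.5 in het and at 68.8, 75.6 and 48.1 in homo pre-B libraries. Its homo and WT groups did not overlap, but the difference of log2 −0.32 ± 0.151 was not called (0.189), and the lowest value came from the shallowest library.

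**Figure D3:**
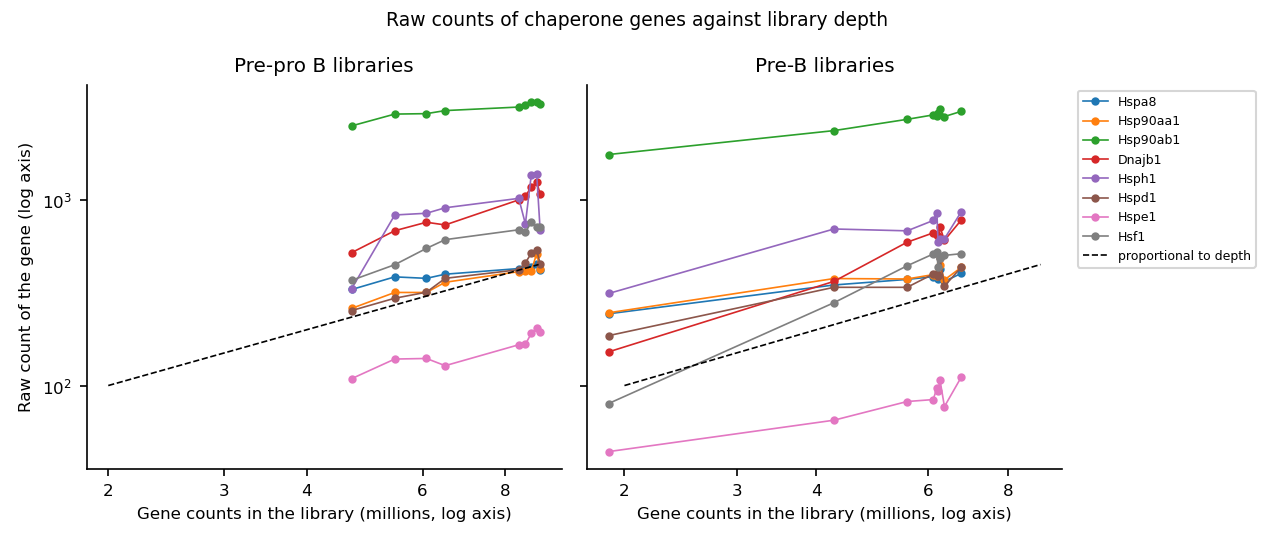
Raw counts of 8 members against gene counts per library, both on log axes, for the 9 pre-pro B (left) and 9 pre-B (right) libraries; the dashed line shows a count proportional to depth. The lines of Hspa8 and Hsp90ab1 are flatter (slopes 0.362 and 0.366 in pre-pro B cells) than those of Dnajb1 and Hsf1 (1.15 and 0.951).

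Hsp90aa1, the inducible cytosolic HSP90, showed no genotype call. In pre-pro B cells it stood at 59.7, 52.9 and 56.2 CPM in the WT libraries, 57.1, 46.1 and 48.6 in the het ones and 46.1, 46.9 and 56.1 in the homo ones. At the pre-B stage it stood at 62.6, 67.3 and 64 in the WT libraries, 58, 93.2 and 63 in the het ones and 64.5, 69 and 148 in the homo ones. The groups overlapped at both stages, and the differences between homo and WT were log2 −0.19 ± 0.0992 (edgeR adjusted p = 0.186) and 0.49 ± 0.299 (0.308).

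Dnajb1, the J-domain partner of inducible HSP70, had the smallest difference between homo and WT of the members tested at either stage. It stood at 123 ± 7.6 CPM (WT), 121 ± 8.77 (het) and 124 ± 10.5 (homo) in pre-pro B cells. The pre-B means were 106 ± 1.75, 99.5 ± 12.5 and 101 ± 9.68. The differences between homo and WT were log2 −0.0014 ± 0.0746 (edgeR adjusted p = 0.992) and −0.06 ± 0.118 (0.793). In homo pre-pro B replicate 3, with its high Hspa1a and Hspa1b, Dnajb1 read 136 CPM against 117 and 119 in the other homo libraries.

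Hsph1, an exchange factor for HSP70, varied widely within the het and homo groups. In pre-pro B cells it stood at 156, 142 and 142 CPM in the WT libraries, 73.1, 152 and 121 in the het ones and 74.6, 84.2 and 151 in the homo ones. At the pre-B stage it stood at 137, 122 and 125 in the WT libraries, 96.6, 173 and 126 in the het ones and 94.6, 95.2 and 189 in the homo ones. In homo, at either stage, replicate 3 was the library with high Hsph1 and with the highest Hspa1a and Hspa1b. Over the 18 libraries the deviations of Hsph1 from its group means had a Pearson r of 0.648 with those of the summed pair, against 0.278 to 0.445 for the other members except Hsf1 (−0.253). The libraries share their depth, so these values are given as a description. Hsph1 was not called in homo against WT in pre-pro B cells (log2 −0.52 ± 0.332, edgeR adjusted p = 0.311) or pre-B cells (−0.06 ± 0.276, 0.911).

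Hspd1 and Hspe1 encode the large and the small subunit of the mitochondrial chaperonin, and their gene bodies on chromosome 1 run in opposite directions with 96 bases of overlap. Hspd1 stood at 55.9 ± 2.97, 54.2 ± 3.96 and 53.2 ± 4.93 CPM in WT, het and homo pre-pro B cells, and 63.1 ± 2.06, 66.8 ± 15.3 and 82.8 ± 26 in pre-B cells. Hspe1 stood at 26.1, 23.3 and 19.9 CPM in WT pre-pro B cells and 15.5, 14.7 and 13.5 in WT pre-B cells, so that the stages did not overlap. Het libraries read 23.8, 21.2 and 19.6 in pre-pro B and 12, 16 and 16.1 in pre-B cells, and homo libraries 21, 18.8 and 22.2 and 14.9, 16.5 and 26.4. Neither was called between genotypes at either stage, with edgeR adjusted p from 0.307 to 0.525 for homo against WT.

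Stretches of the promoters of Hspe1 and Hsph1 are shown to set their heat shock element letters beside those of Hspa1a and Hspa1b, again from RefSeq on GRCm38.p6, with the matching letters in capitals.
Hspe1 (chr1:55088054-55088081, plus strand): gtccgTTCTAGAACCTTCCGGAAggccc
Hsph1 (chr5:149636352-149636379, minus strand): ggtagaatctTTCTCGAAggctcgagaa
In Hspe1 3 overlapping pairs make up 1 run, which also lies in a promoter window of Hspd1 on the other strand, and 0.12% of all promoter windows hold at least 3 pairs. Neither promoter window of Dnajb1 held these letters, and no promoter of Hspa8, Hsp90aa1, Hsp90ab1 or Hsf1 was in the table. A match is a description of letters and not of binding.

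**Figure D4:**
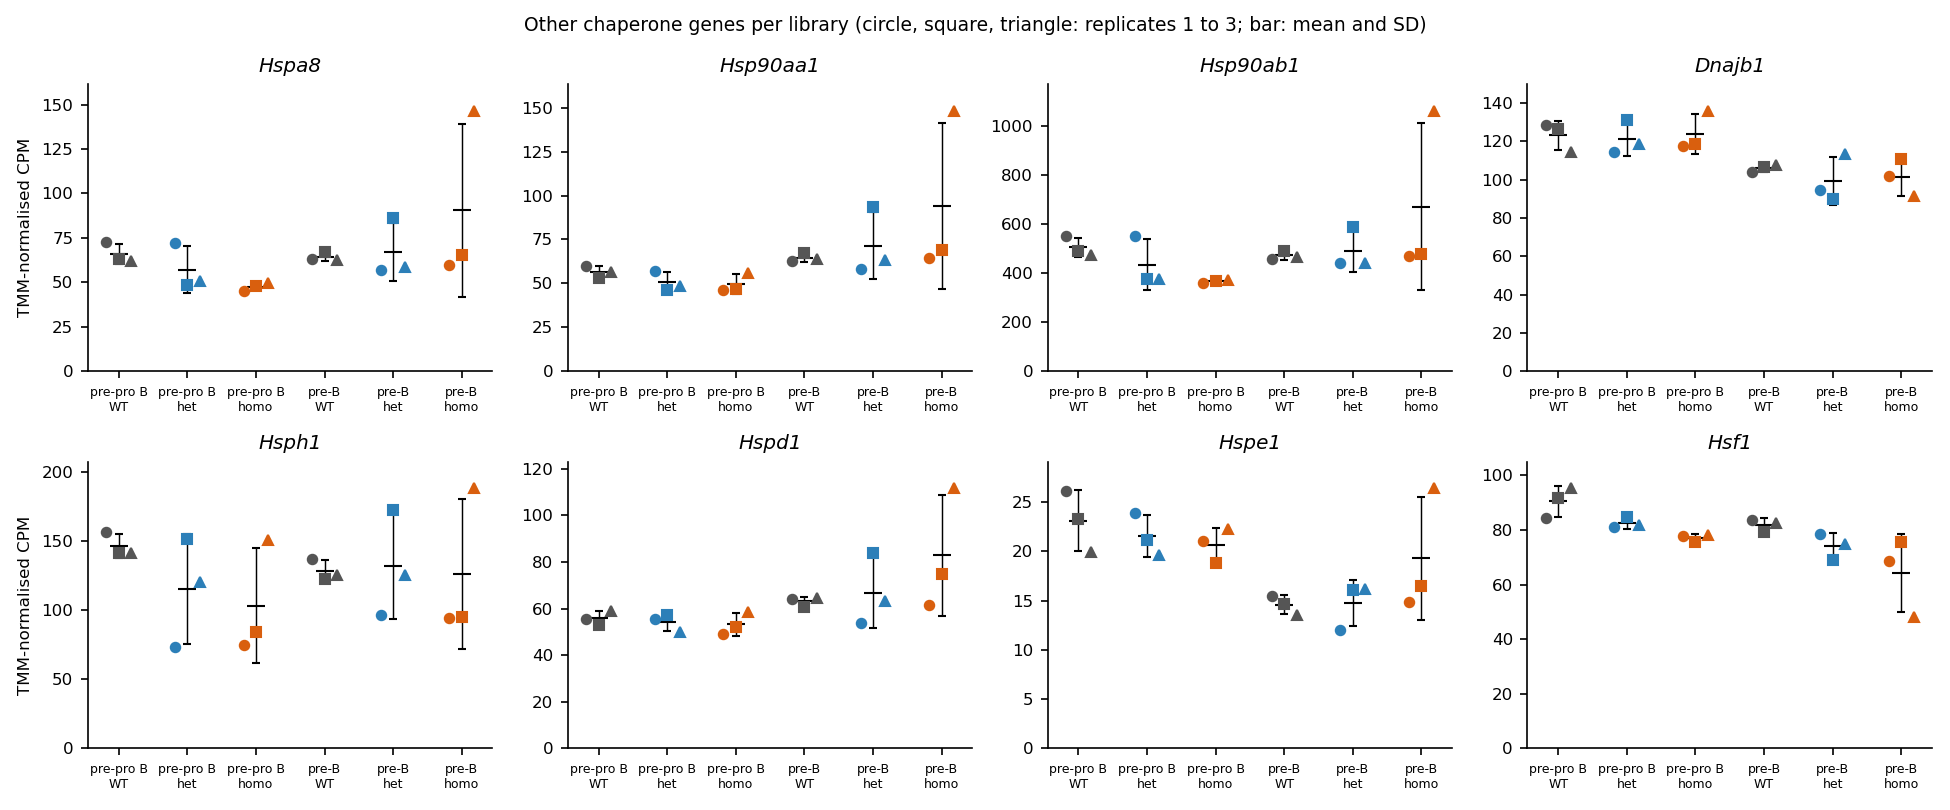
TMM-normalised CPM of the other 8 members in each RNA library by stage and genotype, with the mean and SD of 3 libraries. In homo pre-B cells replicate 3, the shallowest library, is the highest of its group for Hspa8, Hsp90aa1, Hsp90ab1, Hsph1, Hspd1 and Hspe1 and the lowest for Dnajb1 and Hsf1.

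Between the stages Hspe1 was the only member called in WT, where 64.3% of 12440 genes were called and 33.3% were called lower. It fell by 0.66 on the log2 scale from pre-pro B to pre-B cells (SE 0.175, edgeR adjusted p = 0.00306), and each WT pre-B library was below each WT pre-pro B library. In het, where 68.1% of genes were called and 35.8% lower, Hspe1 fell by 0.55 (0.0107) and Dnajb1 by 0.28 (0.0184). In homo, where 69.1% were called, 32.7% higher and 36.4% lower, 4 members were called higher in pre-B cells and Dnajb1 lower by 0.28 (0.021).

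The 4 that were called higher in homo pre-B cells were Hspa8 (log2 0.85 ± 0.254, edgeR adjusted p = 0.0069), Hsp90aa1 (0.85 ± 0.236, 0.0043), Hsp90ab1 (0.86 ± 0.238, 0.00386) and Hspd1 (0.59 ± 0.173, 0.00607). In homo the stages also differed in depth, with 8592557 to 9048055 counts in pre-pro B and 1888871 to 6257527 in pre-B libraries. Every homo pre-pro B library was deeper than every homo pre-B library, so stage and depth cannot be told apart there. With library size as a covariate none of these 4 was called. Hspa1a and Hspa1b were not called between stages in any genotype, and in homo the values turned on 1 library. Without pre-pro B replicate 3 Hspa1a was at log2 4.45 in pre-B against pre-pro B cells (0.00104) and with it at −1.65 ± 1.19 (0.226). Hspa1b was likewise at log2 5.37 without that library (1.34e-06) and at 0.35 with it (0.765).

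Whether a genotype's effect differed from stage to stage was tested as an interaction. No member was called for homo against WT, where 14.5% of genes were called, or for het against WT, where 5.65% were. The largest of these for an abundant member was Hsp90ab1, at log2 0.96 ± 0.334 for homo (edgeR adjusted p = 0.0645). For Hspa1b the interaction was log2 0.38 ± 2.1 for homo (0.94). That value rested on 1 library: without homo pre-pro B replicate 3 it was log2 5.41 (0.0013). In het against WT pre-pro B cells, where 0.558% of genes were called, and in homo against het pre-pro B cells, where 0.0164% were, no member was called.

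**Figure D5:**
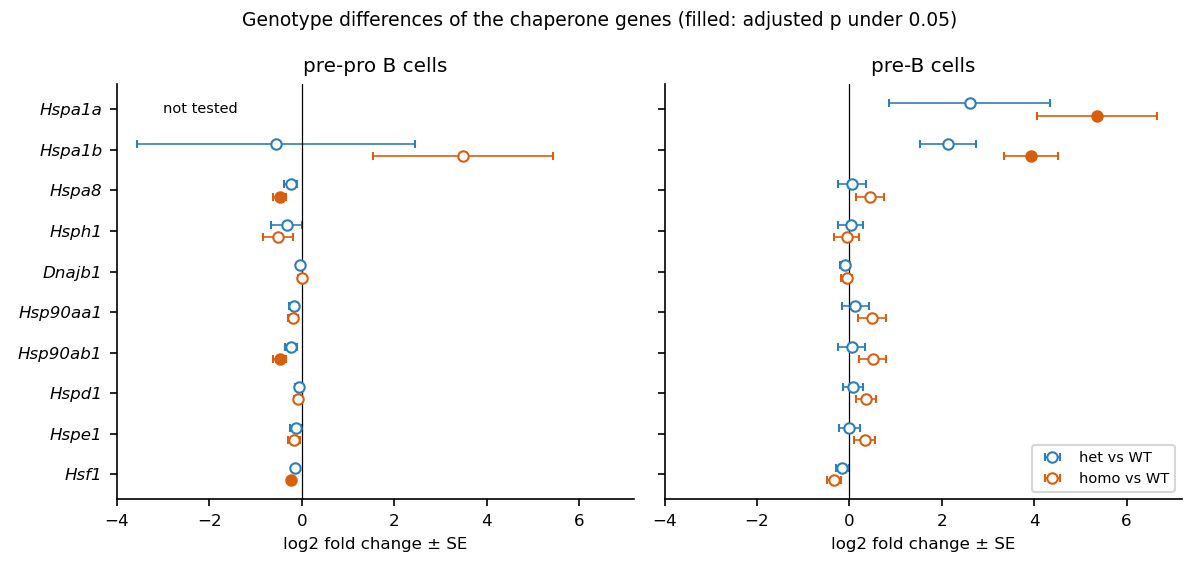
Log2 fold change with its standard error for het (blue) and homo (orange) against WT, for each member tested. Pre-pro B cells are on the left, without Hspa1a, which was not tested there, and pre-B cells on the right. Those filled have an edgeR adjusted p under 0.05. Filled points are Hspa8, Hsp90ab1 and Hsf1 on the left and Hspa1a (5.35) and Hspa1b (3.94) on the right.

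Few partners of HSP70 and HSP90 were called in homo against WT pre-B cells, where 15.9% of all genes were called. Of 14 HSP70 co-chaperones tested in homo against WT pre-B cells 1 was called, Dnajb4, a J-domain protein gene, which rose from 25.1 ± 0.626 to 35.9 ± 3.02 CPM (log2 0.51 ± 0.142, edgeR adjusted p = 0.0352). That call was lost in 7 of 15 alternatives, with adjusted p up to 0.166 and a log2 difference of 0.34 to 0.58. None of 12 HSP90 co-chaperones, 8 subunits of the cytosolic chaperonin TRiC, 9 mitochondrial chaperones and proteases or 14 chaperones of the endoplasmic reticulum (ER) was called there. The median log2 difference was 0.154, −0.00956, 0.287, −0.0335 and 0.0772 for these 5 lists in turn and 0.0182 over all genes tested. Hspa2, an HSP70 gene known mainly from testis, was called lower, at 147 ± 7.8 CPM in WT and 83.9 ± 2.24 in homo (log2 −0.81 ± 0.116, adjusted p = 0.00114).

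Immediate early genes are those that rise within minutes of many stimuli. Of 21 tested in the same pre-B contrast 7 were called lower in homo and 1 higher, with a median log2 difference of −0.191, where 8.45% of all genes were called lower. Among the 7 were Egr3 (log2 −2.84 ± 0.348, edgeR adjusted p = 0.000436), Fosb (−2.70 ± 0.497, 0.00478) and Fos (−2.51 ± 0.341, 0.000801). Socs3 was the one called higher (1.86 ± 0.441, 0.0171). Fos stood at 82.7 ± 25 CPM in WT and 14.2 ± 3.32 in homo. The call of Socs3 was lost in 5 of 14 alternatives, while those of Egr3, Fosb and Fos held in all 15.

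In homo against WT pre-pro B cells several chaperone lists held members called lower, beside the depth difference already described. Counts called lower were 11 of 14 ER chaperones, 5 of 8 TRiC subunits, 5 of 12 HSP90 co-chaperones and 4 of 16 HSP70 co-chaperones, with none higher, and 0 of 9 mitochondrial genes, where 10.4% of all genes were called lower. Median log2 differences were −0.338 for the ER list, −0.206 for TRiC, −0.193 for the HSP90 and −0.146 for the HSP70 partners, against 0.01 over all genes. Examples are Hspa5, the ER HSP70 (491 ± 36.6 CPM in WT and 354 ± 2.44 in homo, log2 −0.48 ± 0.121, edgeR adjusted p = 0.0195), Hsp90b1, the ER HSP90 (−0.50 ± 0.15, 0.0396), and Stip1, which links HSP70 to HSP90 (−0.27 ± 0.0512, 0.00552). The Hspa5 call was lost in 8 of 15 alternatives, that of Hsp90b1 in 10 and that of Stip1 in 2. With library size as a covariate these genes stood in turn at log2 −0.15 (edgeR adjusted p = 0.0721), −0.09 (0.232) and −0.24 (0.0717). Hspb6, a small heat shock gene, was called higher (2.3-fold, edgeR adjusted p = 0.00281), but not with that covariate (log2 0.96, 0.0707). Markers of other cells differed too: the summed NK and innate lymphoid level was 31.8 to 46.6 CPM in WT and 218 to 408 in homo, with Klra8 at 0 in both, the myeloid level 95.4 to 103 and 209 to 284, and the plasmacytoid dendritic cell level 6130 to 6930 and 4640 to 4810. Of the tested markers 13 of 13, 8 of 10 and 0 of 12 were called higher and 0, 0 and 5 lower, and their part in the chaperone values was not tested.

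Between the stages of WT 13 of 14 ER chaperones were called lower in pre-B cells, with a median log2 difference of −0.856 against −0.00949 over all genes; 33.3% of all genes were called lower and 31% higher. Creld2 was lowest relative to pre-pro B cells (log2 −1.48 ± 0.0939, edgeR adjusted p = 2.08e-10). Among HSP70 partners the J-domain gene Dnaja4 (12.4 to 0.702 CPM, log2 −4.06 ± 0.388, 5.2e-08) and Bag3, a stress-induced exchange factor (7.87 to 0.655 CPM, −3.53 ± 0.362, 1.35e-07), fell and Dnajb4 rose (1.71 ± 0.145, 1.14e-08). Of 8 other HSP70 and HSF genes tested 5 rose, Hspa2 from 13.5 to 147 CPM (3.44 ± 0.202, 7.22e-11). In the same contrast 11 of 12 plasmacytoid dendritic cell markers fell, from a summed level of 6130 to 6930 to one of 1280 to 1380 CPM, and their part was not tested.

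Genes whose pattern was most like that of the summed pair over the 18 libraries were Maf (Pearson r 0.792 of log2 CPM plus 1), Serpina3g (0.733), Armcx4 (0.731), Usp22, Sytl4, Wipf1, Fdxacb1 and Drc7. Maf stood at 10.8 ± 2.87 CPM in WT libraries, 19.2 ± 6.7 in het and 63.9 ± 31.7 in homo pre-B cells and read 19.7 in homo pre-pro B replicate 3 against 7.68 and 9.81 in the other 2 homo libraries. Serpina3g stood at 10 ± 1.85, 39.6 ± 2 and 89.9 ± 9.85 CPM in WT, het and homo pre-B cells. Ranked by deviations from the group means instead, the leading genes were Fam53b (0.814), Akap12 (0.8), Mlxip, Hivep2, Kcnip3, Desi1, Fkbp5 (0.72) and Pde2a. Fkbp5, a co-chaperone of HSP90, read 353 CPM in homo pre-pro B replicate 3 against 143 and 149 in the other homo libraries. That library has the largest deviation of the pair from its group mean, and the ranking without it was not computed.

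Elsewhere in the family, 3 of 10 members had an Ikaros region within 10 kb of the gene body in WT pre-B cells, 6 in homo pre-B cells, 2 in WT thymocytes and 4 in homo thymocytes. The same was true of 11.2%, 24%, 11.9% and 30.7% of protein-coding genes. In both pre-B lists the members counted include Hspa1a and Hspa1b, neighbours that share regions and so are not separate sites. Hsp90aa1 had one in all 4 lists, about the same place each time, from chr12:110701285-110701871 in WT pre-B cells (fold 12.79) to chr12:110701434-110701838 in homo thymocytes (fold 9.7). Hspa8 had a region over the low-coordinate end of its gene body in homo thymocytes, chr9:40800614-40801558 (fold 15.56, rank 73 of 8221), and in homo pre-B cells, chr9:40800633-40801295 (fold 7.85). It was also the only member with an Aiolos region within 10 kb, in homo thymocytes (fold 4.96, −log10 q 1.63), where 0.503% of genes had one. The Dnajb1 start site was covered in WT (fold 3.3) and homo thymocytes (fold 5.97), where 1.6% and 13.1% of start sites were.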

How the data were processed

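RNA from 18 sorted libraries and 8 ChIP lists were analysed. The deposited RNA files hold the number of reads counted for each of 24459 gene symbols (raw counts); 5 rows that name no gene, with 29.85% to 40.15% of a library's total in reads outside genes, were left out. Per the submitters' processing notes the tools were MACS2 2.1.1, HISAT2 2.1.0 and STAR 2.7.0 on mm10, with no roles given; strand use in counting is likewise not given. The deposited broad peak lists give the authors' fold, −log10 p-value and −log10 q-value per region, used as given, and the authors' score, not used here. RefSeq, on the same assembly, gave gene positions and, through its promoters, start sites.

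Counts were tested with edgeR 4.0.16 in R 4.3.3 (filterByExpr, TMM, robust quasi-likelihood F test, Benjamini-Hochberg over all genes tested, called under 0.05), genotypes within a stage (9 libraries; 12188 and 11411 genes) and stages and interactions in all 18 (12440 genes). Levels are TMM-normalised CPM. The test was run on simulated counts first. Intervals cover counting error only. Alternatives were other scaling (RLE), filters, a sex term, library size, a replicate block, the summed pair, DESeq2 1.42.0 and leaving out each library. Members and lists were chosen with earlier results of these data known. All members are described; from each list at most 4 called genes with the largest fold change are named, and 8 genes most like the pair by each measure; genes listed as high in 1 library were named after their values were seen.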

Additional observations from a re-analysis of the deposited data

How the results depend on the processing

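Members called in homo against WT pre-pro B cells numbered 3, and 1 with no filter on low counts or a sex term and 0 with a library size covariate or a fit of all 18 libraries; leaving out 1 library gave 0 to 1. In homo against WT pre-B cells the 2 calls became 1 with the stricter filter (10 CPM in 3 libraries), with the pair summed, with a sex term and in the fit of 18 libraries, and 1 to 2 without 1 library. In het against WT pre-B cells the count went from 0 to 1 (Hspa1b) with no filter, the replicate block, library size or DESeq2. In homo against het pre-B cells it went from 0 to 1 with no filter or library size and to 2 with DESeq2. Between stages the WT count of 1 became 2 with RLE or DESeq2, 3 with library size, and 1 to 2 without 1 library; the het count of 2 became 1 to 2, and the homo count of 5 became 1 with library size. The interaction count for homo went from 0 to 1 with DESeq2 (Hsp90ab1) and 0 to 2 without 1 library, and that of het against WT pre-pro B cells from 0 to 0 to 2 (Hspa8 and Hsp90ab1 without het replicate 1). The cause was not tested.

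Signs turned for low-count values that the reported fits did not call. With library size, log2 differences of Hspa1b between stages in homo went from 0.35 to −0.66, and the homo interactions of Hspa1a and Hspa1b from 0.02 and 0.38 to −1.69 and −0.62; with no filter that of Hspa1a was −0.046. Leaving out 1 library gave ranges of −0.29 to 0.29 for Hspa1b between stages in WT, −0.32 to 5.37 for Hspa1b and −2.78 to 4.45 for Hspa1a between stages in homo, −1.12 to 6.11 for the Hspa1a and −0.31 to 5.41 for the Hspa1b interaction, −1.53 to 4.06 for Hspa1b in homo against WT and −0.97 to 4.62 in homo against het pre-pro B cells. The end away from the reported value came in the last 2, and in the stage and interaction values above 4, without homo pre-pro B replicate 3.

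The WT pre-B list held 2 Ikaros regions within 10 kb of the pair and 1 within 2 kb. Within a stage, same-numbered libraries of different genotypes deviated together no more often than differently numbered ones. Their r was −0.614 to 0.17 in pre-B cells, over 0.1 in 3 of 9 pairs against 7 of 18 others. In pre-pro B cells it was −0.253 to 0.0967, over 0.1 in 0 of 9 against 5 of 18. The replicate block left 2 calls in homo against WT pre-B cells. Across stages, same-numbered libraries of a genotype had the same sex in 9 of 9 cases and r of −0.0602 to 0.26, over 0.1 in 5. Differently numbered libraries had the same sex in 10 of 18 cases and r of −0.23 to 0.16, over 0.1 in 1. Without Xist and the Y-linked genes the r of same-numbered libraries was −0.126 to 0.122, against −0.112 to 0.0889 for differently numbered libraries. Whether numbers mark the same mouse is not known. A replicate block within each genotype, chosen after seeing the data, gave 1 call between stages in WT, 2 in het, 6 in homo and 1 in the homo interaction (Hsph1). It put Hspa1b higher in pre-B cells in het (log2 2.66, edgeR adjusted p = 0.0206) and homo (2.15, 0.0178) and Hspa1a in homo at 0.20, and ended the calls of Dnajb1 in het (0.0532) and homo (0.061). Depth limits Hspa1a in WT pre-B cells, with 2 counts in 3 libraries.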
